A study of Arabidopsis thaliana with 6 samples.

Results

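The 6 genes of iron acquisition and coumarin synthesis described here were followed in seedlings of Arabidopsis thaliana that carry a mutation in DME: FRO2 (AT1G01580), F6'H1 (AT3G13610), CYP82C4 (AT4G31940), FIT (AT2G28160), BHLH100 (AT2G41240) and NAS2 (AT5G56080). They were taken by locus code from the authors' deposited table of dme against wild type, and all 6 were found among its 5311 measurements. The mutant seedlings (dme, genotype given as dme/-, 3 libraries) and the wild-type seedlings (WT, 3 libraries) were both of the Ler accession, grown on MS plates and harvested whole at 7 days after germination. Which dme allele was used is not given in the labels. DME encodes a DNA glycosylase that excises 5-methylcytosine, and for its own transcript the authors' deposited table gave a log2 fold of -1.55.

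The table gives for each gene the mean normalized count over all 6 libraries, the fold change and an adjusted p, and it holds only genes with a change of at least 2-fold and an adjusted p under 0.05. Values of single libraries and the depth are not used here, so the spread between replicates is seen only through the adjusted p, and whether the groups overlap cannot be stated. The mean of each genotype was worked out from the overall mean and the fold, and is called the implied mean. The deposited table has no standard errors. An upper bound on each was computed from the fold and the adjusted p, on the assumption of a Wald test. The members were picked from this same contrast, so their values are a description. The header does not say which genotype is the numerator, and folds were taken as dme over WT because the table is named for dme.

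Iron in soil is mostly insoluble ferric iron, and Arabidopsis roots take it up by acidifying the soil, reducing ferric to ferrous iron at the root surface and importing the ferrous ion. Roots short of iron also secrete coumarins, phenolic compounds that mobilise ferric iron. The basic helix-loop-helix (bHLH) factor FIT acts with the subgroup Ib factors BHLH38, BHLH39, BHLH100 and BHLH101 to switch on the uptake genes, and nicotianamine, made by NAS enzymes, chelates iron and other metals for movement inside the plant.

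All 6 members were higher in dme. Their table entries cover the first and last enzymes of the coumarin branch, the surface reductase, a pair of regulators and a nicotianamine synthase. Of annotated protein-coding genes, 13.7% were listed as higher, a share given for scale only, since the members were chosen from this contrast. Among the 5 members with reads in both genotypes, the log2 folds of the authors' deposited table lay between 2.51 and 8.18, with a median of 5.17. The median of all 3632 higher genes with reads in both genotypes was 1.98. By size of fold among these 3632 genes, NAS2 ranked 3, FRO2 78, BHLH100 88, F6'H1 146 and FIT 1234. By adjusted p the order was another one, with FRO2 at rank 17 of 5311, F6'H1 at 47, FIT at 608, CYP82C4 at 1258, BHLH100 at 1559 and NAS2 at 1682.

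**Figure D1:**
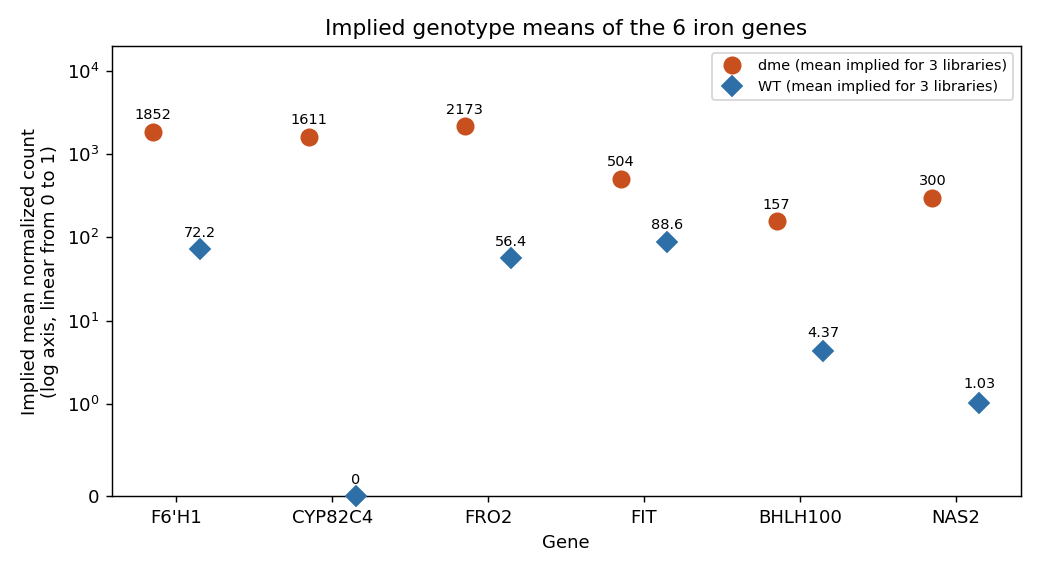
Implied mean normalized count of each member in dme (circles, left) and WT (diamonds, right), on an axis that is logarithmic above 1 and linear between 0 and 1. Each point is a genotype mean over 3 libraries worked out from the authors' mean and fold, with no error bar since no values per library were used. CYP82C4 stands at 1611 in dme and 0 in WT, and FIT has the closest pair, 504 in dme and 88.6 in WT.

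Coumarin genes come first. F6'H1 (chromosome 3), the dioxygenase that hydroxylates feruloyl-CoA and so opens the branch to scopoletin, had an implied mean of 1852 normalized counts in dme and 72.2 in WT. The authors' deposited table put it 25.7-fold higher in dme, a log2 fold of 4.68 with a standard error of at most 0.173 and an adjusted p of 5.88e-161. CYP82C4 (chromosome 4), the cytochrome P450 that hydroxylates fraxetin to sideretin at the end of the branch, had an implied mean of 1611 in dme. Its fold followed the pattern of genes with no reads in WT, so WT was taken as 0 and no fold is given. For CYP82C4 the authors' deposited table gave an adjusted p of 8.43e-27.

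The enzyme between them had the same pattern at a lower level. S8H, which hydroxylates scopoletin to fraxetin, had an implied mean of 89.1 in dme and 0 in WT. Its adjusted p, per the authors' deposited table, was 7.00e-12. CYP82C4 was thus read at a far higher level in dme than the enzyme that makes its substrate. Per kilobase of the longest annotated transcript, the implied dme level was 854 for CYP82C4 and 62.9 for S8H. ABCG37, also known as PDR9, the transporter of the root plasma membrane that exports coumarins, had an implied mean of 16404 in dme and 934 in WT. The authors' deposited table lists its log2 fold as 4.13 and writes its adjusted p as 0.

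Earlier steps moved less. 4CL2, a 4-coumarate-CoA ligase of general phenylpropanoid metabolism, was 3.84-fold and CCOAOMT1, a caffeoyl-CoA methyltransferase, 2.93-fold higher per the authors' deposited table. MYB10, a factor which with MYB72 switches on NAS4 in iron-starved roots, had implied means of only 23.8 in dme and 2.06 in WT. The whole list of coumarin synthesis and secretion held 14 genes. Of these 14, 7 rose (against 13.7% of annotated protein-coding genes) and 0 fell (against 4.84%). The other 7 were not listed: F6'H2, CYP82C2, CYP82C3, COSY, 4CL1, BGLU42 and MYB72. Absence from the table does not separate an unchanged gene from one that changed less than 2-fold, was too variable or was never tested.

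Close copies bear on this reading, since no source used here says how reads were assigned to copies. CYP82C4 shares 93.2% of aligned coding bases with CYP82C2 and 92.8% with CYP82C3, its neighbours on chromosome 4, and the longest identical stretches are 78 and 97 bases. Neither copy was listed. F6'H1 shares 77.5% with F6'H2, with no identical stretch over 29 bases.

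At the root surface, FRO2 (chromosome 1), the ferric chelate reductase that supplies ferrous iron for import, had an implied mean of 2173 in dme and 56.4 in WT. Its log2 fold, per the authors' deposited table, was 5.27, or 38.5-fold, with a standard error of at most 0.158 and an adjusted p of 1.98e-244. IRT1, the importer that takes up the ferrous iron, had an implied mean of 2121 in dme and 22.0 in WT, which the authors' deposited table gives as a log2 fold of 6.59. The bound on the standard error was wider for IRT1, at 0.877, with an adjusted p of 5.72e-14. IRT2, a related carrier, had a log2 fold of 3.16 and AHA2, the proton pump that acidifies the root surface, one of 1.53, per the authors' deposited table.

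Other members of the reductase family went the opposite way. FRO6, a reductase of green shoot tissue, had implied means of 5990.3 in dme and 15792 in WT. FRO7, the chloroplast reductase, had 3404 in dme and 10622 in WT. The authors' deposited table gives their log2 folds as -1.40 and -1.64. The coding sequences of FRO6 and FRO7 are identical over a stretch of 375 bases, so reads may be shared between them. FRO4, which reduces copper at the root surface, had a log2 fold of -1.29 and an adjusted p of 0.00839 per the authors' deposited table. FRO1, the neighbour of FRO2 on chromosome 1, was not listed, and neither were FRO3, FRO5 and FRO8. FRO1 and FRO2 share 77.6% of aligned coding bases, with no identical stretch over 24 bases. In all, 4 of the 12 genes of reduction and uptake rose (33.3%, against 13.7% of annotated protein-coding genes) and 3 fell (25.0%, against 4.84%). The 5 others were not listed, among them the transporter gene NRAMP1.

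The regulators FIT and BHLH100 rose by different amounts. FIT (chromosome 2) had an implied mean of 504 in dme and 88.6 in WT, 5.69-fold higher per the authors' deposited table, with a log2 standard error of at most 0.173 and an adjusted p of 7.32e-48. Of the 5 members with reads in both genotypes, FIT had the lowest fold, yet 66.0% of the higher genes with reads in both genotypes had a smaller one. BHLH100 (chromosome 2) had an implied mean of 157 in dme and 4.37 in WT. Its log2 fold, per the authors' deposited table, was 5.17, with a standard error of at most 0.547 and an adjusted p of 3.34e-21.

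All 4 genes of subgroup Ib were higher, against 13.7% of annotated protein-coding genes. Among these 4, BHLH100 had been picked from this contrast. BHLH38 had implied means of 148 in dme and 11.0 in WT, and BHLH39 had 336 in dme and 49.2 in WT. BHLH101 had 142 in dme and 32.6 in WT. For these 3 genes the authors' deposited table gives log2 folds of 3.75, 2.77 and 2.12, each below that of BHLH100. Per kilobase of the longest annotated transcript, the implied dme levels of BHLH100, BHLH38 and BHLH101 lay close together, at 136, 137 and 138. Their WT levels per kilobase were apart, at 3.77, 10.2 and 31.7. BHLH39 stood higher in both genotypes, at 276 in dme and 40.5 in WT. BHLH100 shares between 74.2% and 81.5% of aligned coding bases with the other 3, with no identical stretch over 32 bases.

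Genes that restrain or feed into FIT rose too. BTSL1 and BTSL2, ubiquitin ligases that target FIT for breakdown, were 12.0-fold and 2.78-fold higher per the authors' deposited table. BHLH18, BHLH19 and BHLH20, subgroup IVa factors that promote the breakdown of FIT, were higher, while BHLH25, the fourth of that subgroup, was not listed. BHLH19 had a log2 fold of 5.55 per the authors' deposited table, but the widest bound among the regulators, 1.50, and an adjusted p of 0.000210. BHLH20, also called NAI1 and known as a regulator of ER bodies, rose 4.99-fold there. IMA1, IMA2 and IMA3, short peptides that signal iron shortage, had log2 folds of 1.71, 1.38 and 2.21 per the authors' deposited table, and IMA1 and IMA2 share a stretch of 55 identical coding bases. BHLH115, a subgroup IVc factor that activates the Ib genes, rose 2.14-fold per the authors' deposited table, while its relatives ILR3, BHLH104 and BHLH34 were not listed. Of the 22 regulators, 14 rose (63.6%, against 13.7% of annotated protein-coding genes) and 0 fell (against 4.84%). The 8 others were PYE, BTS, ILR3, BHLH104, BHLH34, BHLH121, BHLH25 and BHLH11.

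**Figure D2:**
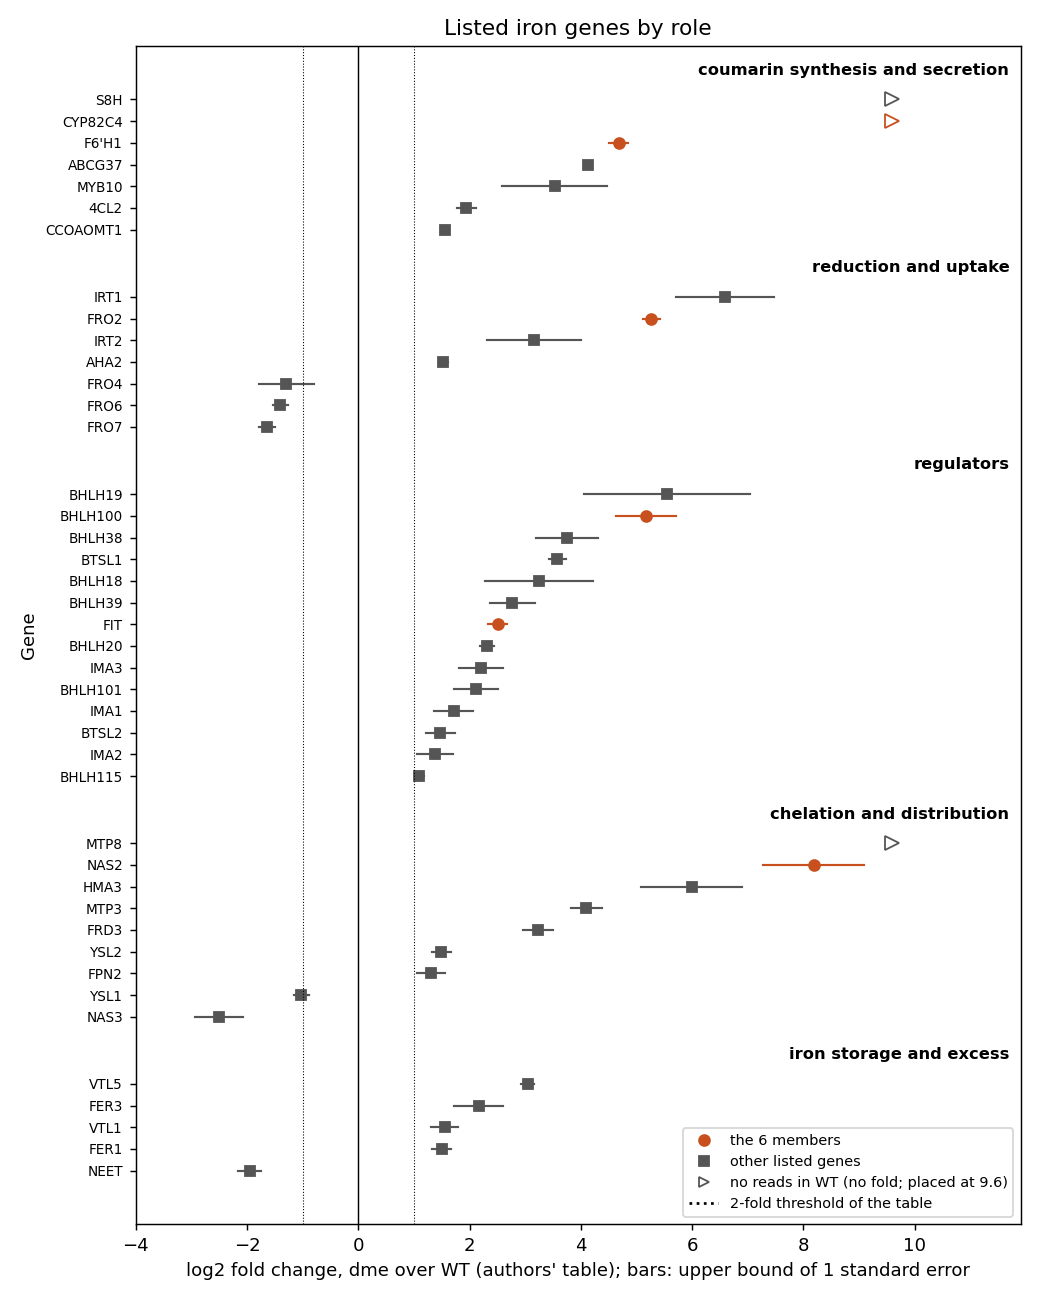
Log2 fold of dme over WT, per the authors' deposited table, for each listed gene of the 5 iron lists, grouped by role, with members as circles and other genes as squares. Bars span the upper bound of 1 standard error on each side, open triangles mark genes without reads in WT, for which no fold is given, and dotted lines mark the 2-fold threshold of the table. FRO4, FRO6, FRO7, YSL1, NAS3 and NEET lie left of 0 and all other listed genes lie right of it. ABCG37, with an adjusted p of 0, has no bar.

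Factors of the bHLH family bind the E-box CANNTG, of which the G-box CACGTG is one form. Both motifs were sought in the 250 bases before the annotated start of each gene in RefSeq's TAIR10.1 assembly, and both read the same on either strand. A G-box lay in this window of 1 of the 6 members, BHLH100, against 6.49% of 27444 protein-coding genes, and in 4 of the 36 higher genes of the iron lists. An E-box, which counts every G-box too, lay in the windows of 4 of the 6 members, F6'H1, FIT, BHLH100 and NAS2, against 55.3% of all genes. The share with an E-box was thus near that of any gene, and a match of letters is not a binding site. Of the Ib genes, BHLH100 and BHLH38 held a G-box, starting 91 and 97 bases before the start of the gene, while BHLH39 held another E-box at 67 bases and BHLH101 none. The windows of BHLH100 (chr2:17199455-17199704, minus strand) and BHLH38 (chr3:21085246-21085495, minus strand) are shown for their G-boxes. That of F6'H1 (chr3:4449009-4449258, plus strand) is shown for its 3 E-boxes, and that of CYP82C4 (chr4:15451738-15451987, plus strand), the member without reads in WT, because it holds none. The sequences run 5′ to 3′ up to the base before the annotated start, and capitals mark every E-box.
BHLH100: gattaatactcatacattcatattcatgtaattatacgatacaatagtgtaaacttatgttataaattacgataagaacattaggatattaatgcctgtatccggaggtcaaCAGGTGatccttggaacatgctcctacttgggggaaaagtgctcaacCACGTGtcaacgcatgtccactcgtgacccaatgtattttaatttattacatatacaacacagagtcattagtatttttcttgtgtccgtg
BHLH38: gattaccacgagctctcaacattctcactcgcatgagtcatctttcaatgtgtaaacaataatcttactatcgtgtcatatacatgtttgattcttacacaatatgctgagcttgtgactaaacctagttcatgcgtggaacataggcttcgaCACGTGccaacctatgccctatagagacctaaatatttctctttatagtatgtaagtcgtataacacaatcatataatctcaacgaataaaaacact
F6'H1: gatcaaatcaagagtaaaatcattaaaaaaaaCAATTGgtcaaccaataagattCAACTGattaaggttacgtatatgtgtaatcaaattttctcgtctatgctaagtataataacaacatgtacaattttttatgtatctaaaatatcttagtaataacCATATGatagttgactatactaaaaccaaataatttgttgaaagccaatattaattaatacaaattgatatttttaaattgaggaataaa
CYP82C4: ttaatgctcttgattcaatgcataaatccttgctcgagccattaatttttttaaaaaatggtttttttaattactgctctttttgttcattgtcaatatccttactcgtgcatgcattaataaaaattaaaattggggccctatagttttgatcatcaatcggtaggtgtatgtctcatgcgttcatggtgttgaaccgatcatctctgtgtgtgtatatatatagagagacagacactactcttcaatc

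Nicotianamine synthase genes split. NAS2 (chromosome 5) had an implied mean of 299.7 in dme and 1.03 in WT, and its log2 fold of 8.18 was the highest of the 5 members that have one. The authors' deposited table gives it an adjusted p of 2.86e-19, and the standard error was at most 0.912. A WT mean near 1 normalized count means that the size of this fold rests on few reads. NAS3 had an implied mean of 20.0 in dme and 113 in WT. The authors' deposited table gives it a log2 fold of -2.50 and an adjusted p of 3.95e-09. NAS1 and NAS4 were not listed. NAS2 and NAS1 share 86.0% of aligned coding bases and a stretch of 49 identical bases, more than NAS2 shares with NAS3 or NAS4.

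Of the 13 transporters that move or sequester metals inside the plant, 6 were higher, 1 was lower and 6 were not listed. FRD3, which loads citrate into the xylem to carry iron to the shoot, had implied means of 754 in dme and 79.9 in WT. MTP3 and HMA3, vacuolar carriers for zinc and for zinc and cadmium, had log2 folds of 4.10 and 5.99 per the authors' deposited table, with an implied WT mean of only 1.38 for HMA3. MTP8, a vacuolar manganese carrier, had implied means of 18.9 in dme and 0 in WT. FPN2, a vacuolar metal loader of the root, was 2.48-fold higher and YSL2, a carrier of metal-nicotianamine complexes, 2.81-fold higher per the authors' deposited table. YSL1, a carrier of the same family in leaves, had 330 in dme and 672 in WT. Of 17 genes of chelation and distribution, 7 rose (41.2%, against 13.7% of annotated protein-coding genes) and 2 fell (11.8%, against 4.84%). NAS1, NAS4, YSL3, OPT3, FPN1, NRAMP3, NRAMP4 and ZIF1 were not listed.

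Of 11 genes of iron storage and excess, 4 rose (36.4%, against 13.7% of annotated protein-coding genes) and 1 fell (9.09%, against 4.84%). The 6 others were not listed. Ferritins, which are known to rise with iron supply, were among those that rose. FER1, an iron-storing ferritin of plastids, had implied means of 17520 in dme and 6193 in WT, and FER3, another ferritin, had 4250 in dme and 948 in WT. The authors' deposited table gives their log2 folds as 1.50 and 2.16, and their adjusted p as 4.67e-19 and 8.14e-07. VTL1 and VTL5, relatives of the vacuolar iron transporter, had log2 folds of 1.55 and 3.05 per the authors' deposited table. NEET, an iron-sulfur cluster protein, had implied means of 449 in dme and 1734 in WT, and the authors' deposited table gives it a log2 fold of -1.95. The genes not listed were FER2, FER4, VIT1, VTL2, VTL3 and VTL4.

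Over the 5 lists together, 42 of 76 genes were in the table (55.3%, against 18.5% of annotated protein-coding genes). Higher in dme were 36 (47.4%, against 13.7%) and lower 6 (7.89%, against 4.84%). Without the 6 members, 30 of 70 were higher and 6 lower. The lists too were chosen with earlier results of these data known, so these shares are a description, with or without the members. Taken from the authors' deposited table, the median log2 fold of the 33 higher list genes with reads in both genotypes was 2.77, beside 1.98 for all such higher genes. Without the members, which were picked from this contrast, it was 2.26 over 28 genes. The annotated genes include some that may not have been tested.

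**Figure D3:**
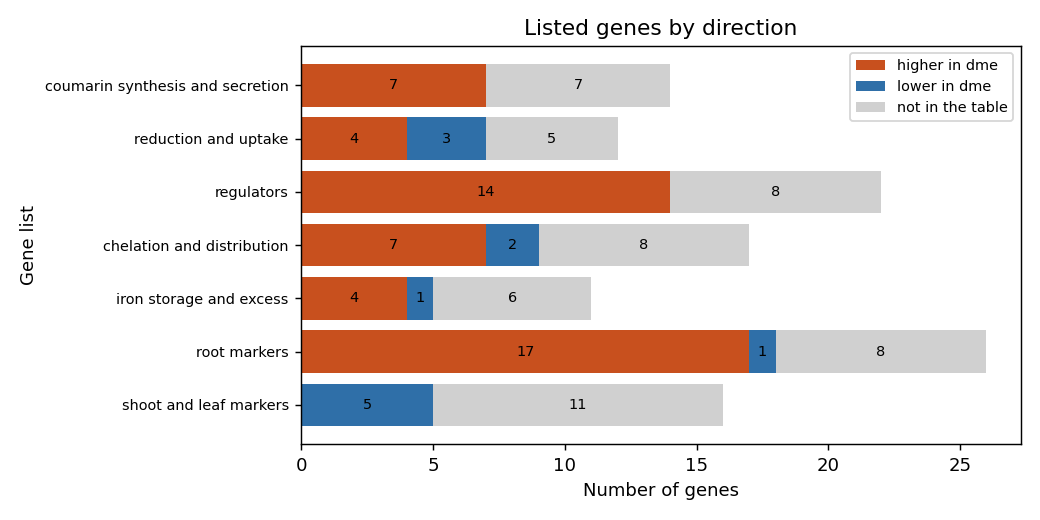
Number of genes of each list that were higher in dme, lower in dme or not in the authors' deposited table. The list of regulators has 14 higher and 0 lower genes, reduction and uptake 4 higher and 3 lower, root markers 17 higher and 1 lower, and shoot and leaf markers 0 higher and 5 lower.

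Markers of root tissue moved in the same direction as the members. Of 26 root markers, 17 were higher (65.4%, against 13.7% of annotated protein-coding genes) and 1 was lower (3.85%, against 4.84%). The 8 not listed were EXPA7, EXPA18, PRP3, NRT2.1, SULTR1;1, PHO1, FEZ and MRN1. Of 16 shoot and leaf markers, 0 were higher (against 13.7%), 5 were lower (31.25%, against 4.84%) and 11 were not listed. These 11 were RBCS1A, CAB1, LHCA1, PSBO1, RCA, SPCH, AS1, YAB1, KAN1, CER1 and FDH. The 18 listed root markers summed to an implied mean of 15121 in dme and 1514 in WT, with single markers between 69.6 and 5830.2 in dme and between 1.37 and 329 in WT. The 5 listed shoot and leaf markers summed to 15224 in dme and 40033 in WT. Both sums leave out the unlisted markers, and the listed ones entered the table by their change. The gap between genotypes is thus partly built in, and the sums are not totals for root or shoot tissue. No listed marker was at 0 in either genotype. SULTR1;2, a root sulfate transporter, THAS1, the thalianol synthase, and PIN2, a root auxin carrier, were the root markers with the smallest adjusted p, with log2 folds of 4.60, 4.60 and 3.51 per the authors' deposited table. The 1 lower root marker was TIP2;3, at -1.01 in log2 per the authors' deposited table. FAMA, GLK2 and LHCB2.1 had the smallest adjusted p of the 5 lower shoot markers, and the authors' deposited table puts them at -1.30, -2.15 and -1.20 in log2.

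The median log2 fold of the 17 higher root markers was 2.76, against 2.77 for the higher iron genes with the members and 2.26 without them. FIT lay below it, while F6'H1, FRO2, BHLH100 and NAS2 lay above it. NAS2 also exceeded CASP2, the root marker with the highest fold, which the authors' deposited table puts at 6.19 in log2. Implied WT means were only 1.03 for NAS2 and 1.37 for CASP2, so the sizes of both folds rest on few reads. In whole seedlings, a change in the share of root cells and a change in RNA per cell cannot be told apart, and the part of root and shoot tissue in these results was not tested.

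**Figure D4:**
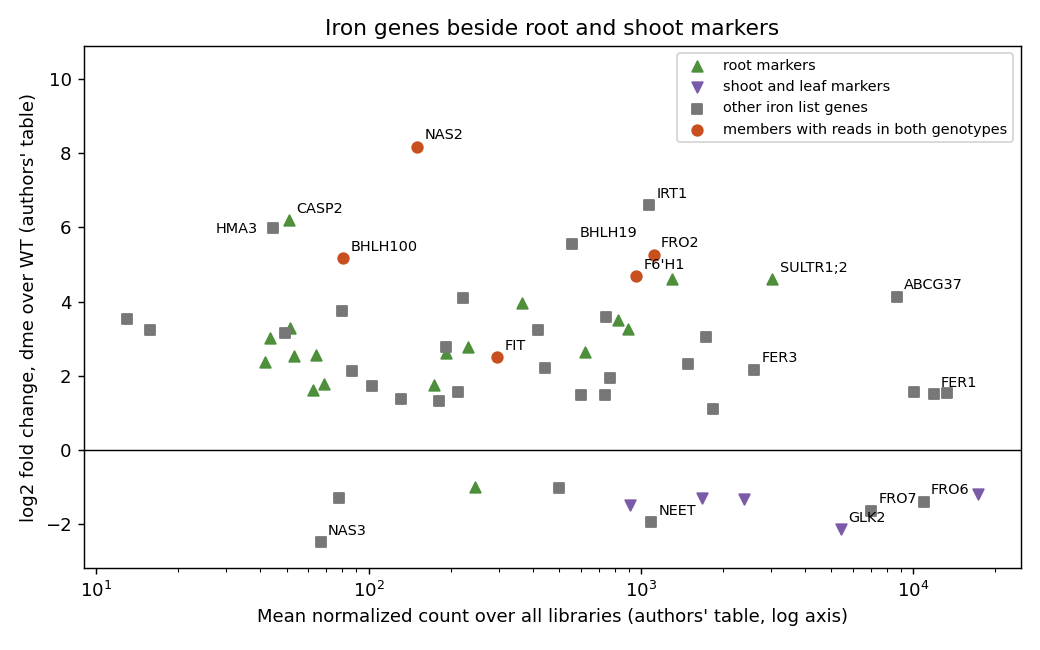
Log2 fold of dme over WT against the mean normalized count over all libraries (logarithmic axis), both from the authors' deposited table, for listed genes with reads in both genotypes. Members are circles, other iron list genes squares, root markers upward triangles and shoot and leaf markers downward triangles. NAS2 lies above every root marker shown, FIT lies among them, and FRO6, FRO7 and NEET lie among the shoot and leaf markers.

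Levels of the members were compared with each other only per kilobase of the longest annotated transcript. In dme the implied level per kilobase was highest for F6'H1, at 1260.1, followed by CYP82C4 at 854 and FRO2 at 762. FIT stood at 365, NAS2 at 230.4 and BHLH100 at 136 in dme. In WT the order was another one, with FIT at 64.2, F6'H1 at 49.1, FRO2 at 19.8, BHLH100 at 3.77, NAS2 at 0.793 and CYP82C4 at 0. The regulator FIT had the highest WT level of the 6 and the fourth highest in dme. Without values per library, which neighbours in these orders differ beyond their spread cannot be stated.

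Outside the iron lists, the gene nearest to each member was sought by distance over log2 fold change and log2 mean, which describes 1 contrast of 2 genotypes. For FIT it was AtRLCK VI_A3, a protein kinase gene, at a distance of 0.0606. For F6'H1 it was AT1G26730, of the EXS family, at 0.147, and for BHLH100 it was SERP4, a serpin gene, at 0.140. For FRO2 it was AT5G52020, a DNA-binding protein gene, at 0.349, and for NAS2 AT1G45120, typed as a transposable element gene, at 0.540.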

How the data were processed

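Whole seedlings were profiled by RNA sequencing, with 3 libraries of dme and 3 of WT grouped by their titles. The labels do not state whether replicates are separate cultures, so the spread behind the p-values, which is that among these libraries alone, could be technical. StringTie 2.1.3, HISAT2 2.1.0, Trimmomatic 0.36 and the build TAIR10 are named in the submitters' processing notes. That build is of the Columbia accession, while the seedlings were Ler. Which tool made the comparison, how libraries were scaled and whether strand was used are not given in the sources.

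One table was used. Per the file headers, it holds a mean normalized count, a signal computed by the authors over all libraries. The authors also give the change as a log2 fold and as a linear ratio, which matched in all 5322 rows. The adjusted p-value was also deposited by the authors. Columns of per-sample values numbered 0, so the planned tests on single libraries were not run, and depth is unknown. In 22 rows, pairs shared a name and all values. Each pair was counted once among the 5311 measurements, while the shares of annotated protein-coding genes were taken without removing repeats.

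Implied means assume an unshrunken ratio of equal groups. Where log2 mean minus absolute log2 fold lay below -3, as in 290 genes, 1 genotype was taken to have no reads. Among the 235 higher ones this difference lay at -3.40, and the next gene stood at -2.43. Whether these genes truly had no reads in 1 genotype was not tested, since the table holds no values per library. The bound on a standard error is the absolute log2 fold over the normal quantile of the adjusted p. The members and lists were chosen with earlier results of these data known. All listed genes of the iron lists are named, and 3 markers per direction with the smallest adjusted p. Markers that were not listed are named too. CASP2 was named after its value was seen.

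Symbols, transcript lengths, promoter windows and coding sequences come from RefSeq's annotation of TAIR10.1 (coordinates are of that assembly, and the deposited table holds none), to which 5292 locus codes matched. Coding identity is over aligned bases of a global alignment. The tools were Biopython 1.88, matplotlib 3.10.9, pandas 2.3.3, scipy 1.17.1, numpy 2.4.6 and Python 3.11.15.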

Additional observations from a re-analysis of the deposited data

How the results depend on the processing

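All 6 members stayed higher with a threshold of 4-fold, with a minimum mean of 50, with an adjusted p under 0.01, under shifts of all log2 fold changes by -0.5 and -1 and after removal of repeated rows. The values of these picked genes fixed that outcome, so it is no added support. Their lowest log2 fold was 2.51 (FIT), their lowest mean 80.8 (BHLH100) and their largest adjusted p, per the authors' deposited table, 2.86e-19 (NAS2). Without genes lacking reads in 1 genotype, a choice made after seeing the data, 5 were left. Under the same settings the higher genes of the iron lists numbered between 25 and 36, and the higher root markers between 14 and 17. At 4-fold, fewer genes passed by construction. The lower genes then numbered 1 over the iron lists, 0 for reduction and uptake, 1 for chelation and distribution and 0 for storage and excess. The same threshold left 0 lower root markers, 1 lower shoot marker and 2 higher genes of storage and excess, and a shift by -1 also left 2 of these. Lower counts under a shift could not be given, since smaller falls are outside the table. No paired analysis was possible because the table holds no values per library. Leaving out replicates, DESeq2 size factors and other low-count filters were not run for the same reason.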

Other observations

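Genes whose deposited description or further annotation names a ferric reductase, outside the iron lists, were looked up after seeing the data. The FRO genes are in those lists and so left out here. Among them FRO2 was higher, and FRO4, FRO6 and FRO7 were lower. The table held 11 such genes outside the lists, all higher in dme, where 72.8% of all its measurements were higher. How many such genes lie outside the table was not counted. Of these, 5 encode respiratory burst oxidases, which are related to FRO reductases and pass electrons to oxygen. RBOHD, active in immune signalling, had implied means of 36400.0 in dme and 1521 in WT, and the authors' deposited table gives it a log2 fold of 4.58. RBOHC, of root hairs, had a log2 fold of 3.83, RBOHB of 3.79, RBOHA of 3.10 and RBOHF of 1.81 there. The 6 others hold the cytochrome b561 type of this domain. AT5G35735 had implied means of 17580 in dme and 1037 in WT. Per the authors' deposited table, AT5G47530 and AT4G17280 had log2 folds of 4.08 and 3.33. Those of AT3G07570, AT3G25290 and AT1G14730 were lower there, at 1.92, 1.60 and 1.12.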
